A study of Mus musculus with 19 samples.

Results

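Neutrophils recovered from mouse tumours after treatment with SM16 were compared with neutrophils of naive bone marrow across all genes that the arrays could measure. The members were chosen by sample title: 5 preparations of tumour-associated neutrophils after SM16 (replicates 1 to 5) and 7 preparations of naive marrow neutrophils (NN, replicates 1 to 7), which together are 12 of the 19 arrays of the study. SM16 is described in the series text as a specific inhibitor of the Alk5 kinase, the type I receptor of TGF-beta. RNA of each preparation was hybridised to its own 1-colour Illumina BeadChip. The labels call every sample a clonal mouse and give no strain, age, tumour line, dose, duration or sorting scheme. They name no gene modification, tumour or drug for the naive group. Tissue, tumour and drug change together between these groups, so their separate parts in any difference below cannot be told apart. Nothing in the labels says that the replicates are separate animals, so the p-values measure the spread between preparations, which may be technical.

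Neutrophils are made in the bone marrow, where precursors fill successive sets of granules: azurophil granules first, with myeloperoxidase and serine proteases, then specific and gelatinase granules, with lactoferrin, cathelicidin and gelatinase. The genes of each set are transcribed during that stage and are largely silent in the mature cell, which carries the finished proteins into blood and tissue. Neutrophils that enter inflamed or tumour tissue can transcribe chemokines, cytokines and receptors anew. TGF-beta in tumours has been tied to a tumour-promoting state of neutrophils, and the series was designed around the different state seen when its receptor kinase is blocked.

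Values are log2 intensities after background correction and quantile normalization, a scale on which 1 unit is a doubling. A gene was called when limma's two-sided test of SM16 minus NN gave p under 0.05 after Benjamini-Hochberg adjustment over the 9083 genes, and every adjusted p below is that value. Where a gene was detected on no more arrays of the dimmer group than it was missed on, the difference is given as a bound ("at least N-fold"), with the dim arrays raised to the lowest detected level of each array.

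The groups differed widely. Of 9083 genes, 6644 (73.1%) were called, 3338 (36.7%) higher and 3306 (36.4%) lower in SM16, and 3601 (39.6%) were called with a change of 2-fold or more, 1855 (20.4%) higher and 1746 (19.2%) lower. An unadjusted p under 0.05 was reached by 6779 genes (74.6%). The arrays of both groups did not overlap at all for 5116 genes (56.3%). With so many calls, the count for any list of genes has to be read against these percentages, and a median change against that over all genes, which was 0.03. A probe passed the filter if detected on 3 or more of the 12 arrays. Members of a list can thus have passed only through their higher group. Across genes, which are not independent replicates, arrays correlated at 0.978 to 0.994 within NN, at 0.969 to 0.989 within SM16 and at 0.775 to 0.815 between the groups. Each NN array detected 10660 to 11807 probes and each SM16 array 10880 to 12492.

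**Figure D1:**
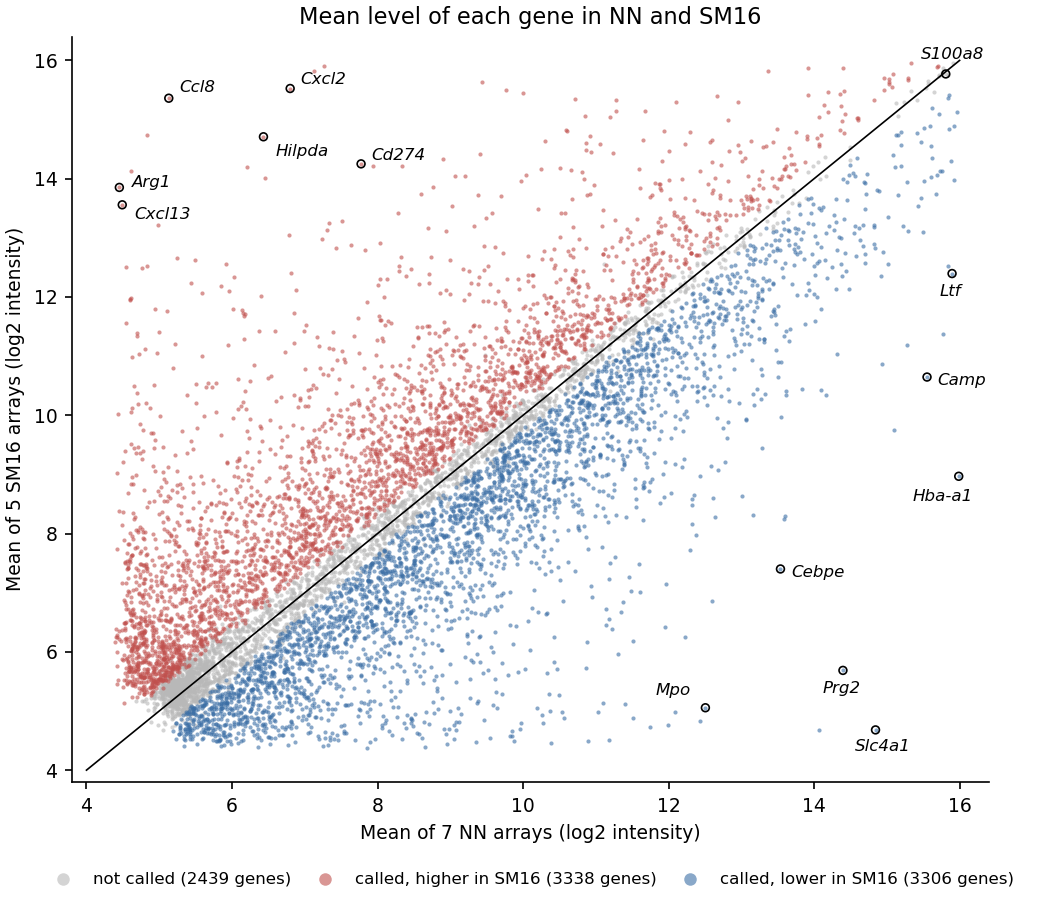
Mean log2 intensity of 9083 genes on the 7 NN arrays (horizontal axis) and the 5 SM16 arrays (vertical axis), with the line of equal levels. Genes called higher in SM16 (3338) lie above the line and genes called lower (3306) below it, and 14 genes named in the text are circled.

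NN replicates 6 and 7 stood apart from the other arrays of these groups, for which the labels give no reason: their lowest signals were 16.1 and 10.3, against 47.5 to 65.5 on NN replicates 1 to 5 and all SM16 arrays. The 4 G-MDSC arrays of the study, not compared here, had a like floor of 10.5 to 17.7. NN replicates 1 to 5 differed from NN replicates 6 and 7 by 2018 called genes (22.2%), 257 of them at 2-fold or more. With NN replicates 6 and 7 left out, 6596 genes were called in SM16 minus NN, and the median change kept its sign in 47 of the 49 gene lists described below. The exceptions were cholesterol and fatty acid metabolism and T and NK cell markers, whose medians lay near 0 in both fits. The size of a list's median depends more on the processing than its sign: of the 49 medians, 24 in the authors' normalized table kept their sign but differed by over 1.5 times.

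Both groups carried the transcripts of neutrophils, although Ly6g had no annotated probe and was not analysed here. Each of the 17 measured neutrophil markers was detected on most arrays of either group. S100a8, a subunit of the calcium-binding protein calprotectin, read 15.82, 15.79, 15.79, 15.59 and 15.87 on SM16 replicates 1 to 5 and 15.72 to 15.89 (median 15.82) on the NN arrays. These readings lie near the top of the scale, and the groups overlapped (log2 change -0.04, SE 0.07, adjusted p = 0.64). S100a9, the other subunit, gave -0.18 (SE 0.09, adjusted p = 0.104) and was called lower without NN replicates 6 and 7 (-0.25, adjusted p = 0.0266). Csf3r, the receptor of granulocyte colony-stimulating factor, gave -0.17 (SE 0.10, adjusted p = 0.126) on its brightest probe, while 3 of its 5 probes were called lower, by -2.71 to -3.12, so its level is uncertain. Over the list 4 markers rose, 10 fell and 3 were not called, with a median change of -0.43. The log2 of their summed intensities was 18.8 to 18.9 on the NN arrays and 18.4 to 18.7 on the SM16 arrays, without overlap.

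The chromosome 5 chemokine genes Cxcl1 and Cxcl2, which recruit neutrophils through Cxcr2, were among the 15 largest rises and carry a kappaB motif, the site bound by NF-kB, in the bases just before their start. Alas2, the erythroid enzyme of heme synthesis, and Gp5, a platelet glycoprotein, were among the 15 largest falls and carry AGATAA, a motif of the GATA factors of red cells and megakaryocytes. Their promoters are shown because they set a chemokine gene of the tumour preparations beside genes of other marrow lineages. Each run is the 250 bases before the gene's start in RefSeq's GRCm38.p6, written 5′ to 3′ on the gene's strand, with motif matches on either strand in capitals.
Cxcl1 promoter, chr5:90890995-90891244, plus strand: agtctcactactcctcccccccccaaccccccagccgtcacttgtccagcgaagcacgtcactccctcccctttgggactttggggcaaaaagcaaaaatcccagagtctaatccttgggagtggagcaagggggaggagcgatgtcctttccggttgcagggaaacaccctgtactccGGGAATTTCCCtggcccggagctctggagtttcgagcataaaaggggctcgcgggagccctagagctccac
Cxcl2 promoter, chr5:90903649-90903898, plus strand: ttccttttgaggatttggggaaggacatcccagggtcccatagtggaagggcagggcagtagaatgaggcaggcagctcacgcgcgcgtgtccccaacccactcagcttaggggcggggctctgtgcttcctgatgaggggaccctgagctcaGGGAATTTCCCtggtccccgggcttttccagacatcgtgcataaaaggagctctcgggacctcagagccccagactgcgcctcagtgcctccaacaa
Alas2 promoter, chrX:150547167-150547416, plus strand: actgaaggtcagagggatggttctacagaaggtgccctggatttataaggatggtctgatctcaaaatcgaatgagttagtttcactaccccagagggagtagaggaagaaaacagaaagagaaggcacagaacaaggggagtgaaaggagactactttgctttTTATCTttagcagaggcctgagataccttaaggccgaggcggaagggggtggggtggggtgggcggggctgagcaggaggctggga
Gp5 promoter, chr16:30310782-30311031, minus strand: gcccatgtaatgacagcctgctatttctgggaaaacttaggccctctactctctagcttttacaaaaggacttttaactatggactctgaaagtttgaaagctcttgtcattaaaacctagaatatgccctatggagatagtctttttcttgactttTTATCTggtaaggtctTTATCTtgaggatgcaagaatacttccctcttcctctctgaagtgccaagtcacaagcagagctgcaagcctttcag

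The capitals in Cxcl1 and Cxcl2 hold 2 overlapping matches, one on each strand, and those in Alas2 and Gp5 read TTATCT, the reverse complement of AGATAA. Of the 15 largest rises, 12 had a promoter in the RefSeq table and 3 of these held a kappaB match, against 10.6% of the 7427 tested genes with a promoter. The third was Hilpda, at 1 of its starts. Of the 15 largest falls, 10 had a promoter and 0 held kappaB, while 3 held AGATAA (30.0%, against 7.70% of all), which were Alas2, Gp5 and the erythroid gene Trim10. AGATAA also stood before Saa3, 1 of the 12 rises. TGANTCA, with N for any base, is a loose form of the AP-1 motif. It stood before 2 of the 12 rises and 1 of the 10 falls, against 6.37% of all. The 2 rises were Folr2, where it read TGACTCA, and Hilpda, where it read TGAATCA, each at 1 of its starts. A match is only a run of letters in a window, and binding was not measured.

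Chemokines were the family with the largest rises. Of 21 chemokine ligands measured, 18 were higher in SM16, 2 were lower and 1 was not called, with a median change of 6.34 (6.30 with undetected members at their bounds). The median was 3.16 in the authors' normalized table, which holds 27 of the ligands, and 4.82 with no filter on detection. On most NN arrays 11 of the 21 were detected, and on most SM16 arrays all 21.

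The monocyte chemoattractants, ligands of Ccr2 and related receptors, moved from background to high levels. Ccl8 read 15.16, 15.36, 15.31, 15.50 and 15.47 on SM16 replicates 1 to 5 and 4.52 to 5.46 (median 5.22) on the NN arrays. That made it at least 947-fold higher in SM16 (adjusted p = 3.91e-18). It was the largest rise of all genes named by size, a set chosen to have no overlap between the groups. Ccl12 was at least 630.3-fold higher, Ccl7 at least 411-fold higher and Ccl2 at least 92.6-fold higher. Ccl2, the best known of them, read 11.86, 12.50, 11.33, 11.70 and 12.50 in SM16 against 4.42 to 5.04 (median 4.57) in NN (adjusted p = 3.48e-15). All 5 SM16 values of Ccl2 lay far above the highest NN value.

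Ccl3 and Ccl4, which attract monocytes and lymphocytes, and the ligands of the neutrophil receptor Cxcr2 rose from low but mostly detected levels. Ccl3 read 15.89, 15.94, 15.88, 15.91 and 15.92 on the SM16 arrays and 6.18 to 8.18 (median 7.49) on the NN arrays, a level at least 400.0-fold higher in SM16 (adjusted p = 1.09e-13). Ccl4 was at least 415-fold higher, and its other probe rose by 9.87 on the log2 scale. On the SM16 arrays the Ccl3 probe read 91.9% to 95.2% and the Ccl4 probe 86.0% to 92.9% of the array's highest signal, so their folds are given as bounds. Cxcl2 read 15.66, 15.62, 15.36, 15.57 and 15.41 in SM16 and 5.36 to 7.98 (median 6.82) in NN. It was 423-fold higher (adjusted p = 9.52e-13), and its NN values spread over a wider range than those of SM16. Cxcl1 was at least 133-fold higher, with SM16 replicate 5 at 13.13 and the other SM16 arrays at 12.28 to 12.48. Ccl5, which attracts T cells and NK cells, was 12.5-fold higher (log2 change 3.64, SE 0.20).

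Cxcl13 draws B cells to lymphoid follicles through Cxcr5. It read 13.51, 13.63, 13.53, 13.73 and 13.39 in SM16 and 4.41 to 4.62 (median 4.46) in NN, which put it at least 277-fold higher (adjusted p = 9.63e-20). No NN array detected it and the SM16 arrays lay within a narrow band. On the TAN arrays 1, 2 and 4, tumour neutrophils without SM16, the same probe read 8.18, 8.61 and 10.15, and that of Ccl8 13.52, 13.94 and 14.71. Those values are set beside the others without a test. The 2 ligands that fell, Cxcl12 and Ccl25, were picked out after their values were seen: Cxcl12, the marrow stromal chemokine that retains neutrophils through Cxcr4, was 24.7-fold lower in SM16 (adjusted p = 8.98e-10), and Ccl25 1.84-fold lower. Ccl17 has a single probe, which was detected on 0 of the 12 arrays and was not tested.

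**Figure D2:**
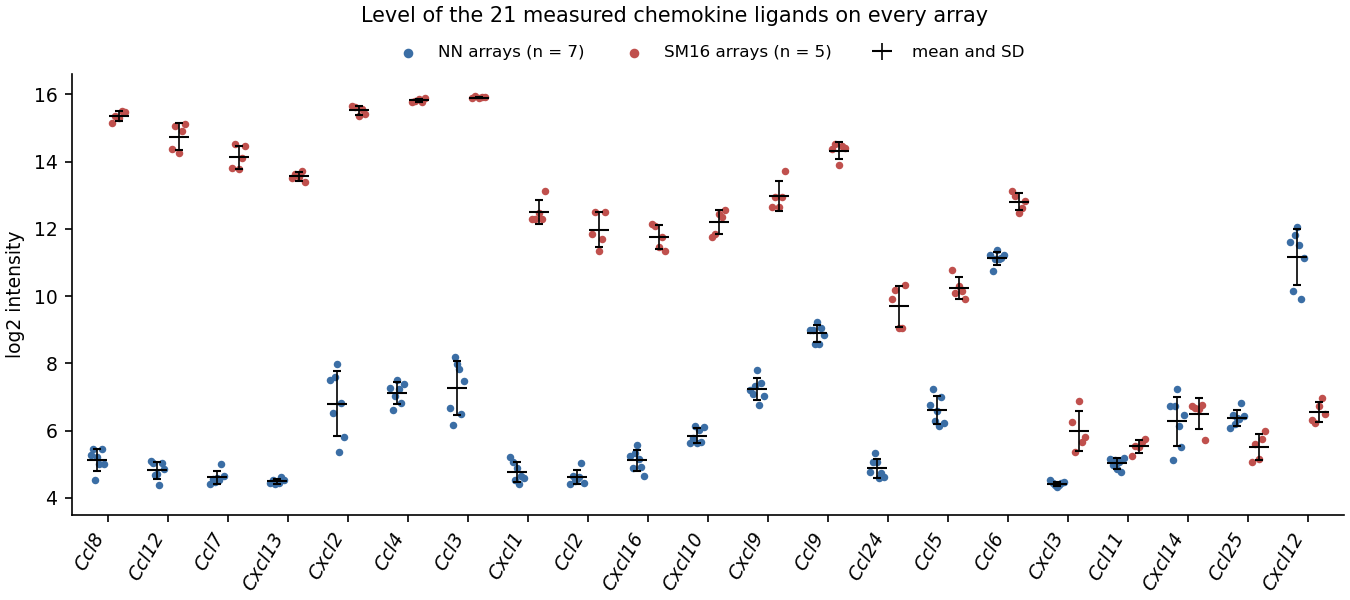
Log2 intensity of the 21 measured chemokine ligands on every NN array (blue, n = 7) and SM16 array (red, n = 5), ordered by the size of the change, with bars for mean and SD. From Ccl8 to Ccl6 the SM16 points lie above all NN points, and Cxcl12 at the right shows the opposite order.

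Receptors for chemoattractants went mostly the other way. Of 17 measured, 5 rose and 12 fell, with a median change of -0.93 (-0.66 at bounds). Cxcr2, the main chemokine receptor of neutrophils, read 13.54, 13.09, 13.50, 13.41 and 12.75 in SM16 and 13.46 to 14.34 (median 13.85) in NN (log2 change -0.66, SE 0.15, adjusted p = 0.000963), a small fall with overlapping arrays. Cxcr4, which holds neutrophils in the marrow, was 2.33-fold lower (adjusted p = 3.43e-09). S1pr4, a sphingosine 1-phosphate receptor, was 27.1-fold lower, C5ar2, a second receptor of complement C5a, 4.56-fold lower, and Ackr1, the atypical chemokine receptor of red cells and vessels, 10.7-fold lower. Ccrl2, an atypical receptor that binds chemerin, was among the 5 that rose, with a 58.8-fold change.

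Inflammatory cytokines and their transcription factors rose in most of their measured members. Tnf read 13.55, 13.68, 13.71, 13.49 and 14.18 on the SM16 arrays and 8.69 to 10.02 (median 9.23) on the NN arrays, 20.3-fold higher in SM16 (adjusted p = 5.43e-12) without overlap. Il1b was already bright in NN and rose from 13.37 ± 0.36 (SD, n = 7) to 15.82 ± 0.06 (SD, n = 5), which was at least 5.48-fold, since its SM16 arrays read 82.6% to 91.0% of the highest signal (adjusted p = 1.02e-10). Its sister cytokine Il1a was at least 54.2-fold higher, and Il1r2, the decoy receptor that neutrophils use to bind interleukin-1, rose 8.89-fold. In the interleukin-1 family 12 of 18 rose, 2 fell and 4 were not called (median 1.64). Il18r1, the receptor of interleukin-18, was 1 of those that fell and was 6.63-fold lower.

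Among the other cytokines and growth factors 18 of 26 rose, 4 fell and 4 were not called (median 1.24, 0.92 at bounds). Of these 26, 17 were detected on most NN arrays and 24 on most SM16 arrays. Il23a, the p19 chain of interleukin-23, was at least 30.6-fold higher, and Hbegf, a ligand of the EGF receptor, at least 33.5-fold higher. Csf1, the growth factor of macrophages, rose 19.3-fold. Vegfa, the angiogenic factor, gave -0.22 (SE 0.12, adjusted p = 0.105) on its brighter probe, and the mean over its probes turned the direction to 0.35 (adjusted p = 0.0193).

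Of 19 NF-kB subunits and inhibitors 15 rose, 2 fell and 2 were not called (median 1.81). Tnfaip3, the ubiquitin-editing enzyme A20 that restrains NF-kB, rose 35.4-fold, Nfkbiz, an atypical inhibitor that steers a subset of targets, 9.82-fold, and Traf1, a signal adaptor of TNF receptors, was at least 8.55-fold higher. Immediate early genes, which cells transcribe within minutes of a stimulus, were higher for 24 of 25 and lower for 1 (median 2.64, 2.31 at bounds). Of these 25, 17 were detected on most NN arrays and 24 on most SM16 arrays. Egr1 read 15.58, 15.64, 15.65, 15.68 and 15.64 in SM16 and 8.39 to 11.63 (median 8.62) in NN. It rose 73.4-fold (adjusted p = 2.19e-09), with the lowest SM16 array above the highest NN array. Atf3 rose 140.3-fold, and Fosb and Egr2 were at least 131-fold higher and at least 39.4-fold higher.

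Granule genes formed the opposite end. Of 10 azurophil granule genes 7 fell, 2 rose and 1 was not called, with a median change of -5.25 (-4.76 at bounds). Mpo, the myeloperoxidase, read 5.01, 5.12, 5.09, 5.30 and 4.76 on the SM16 arrays and 12.03 to 13.21 (median 12.50) on the NN arrays. It was at least 141-fold lower in SM16 (adjusted p = 3.48e-15), where the arrays read at background level, and the other 2 of its 3 probes fell too. Elane, neutrophil elastase, was at least 70.7-fold lower and Ctsg, cathepsin G, at least 32.6-fold lower. Serpinb1a, an inhibitor of these proteases, was 53.5-fold lower. Ctsc, the dipeptidyl peptidase that activates the granule proteases, rose instead and was at least 9.73-fold higher.

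Specific and gelatinase granule genes fell for 17 of 23, rose for 4 and were not called for 2 (median -1.94). Camp, the cathelicidin, read 9.94, 11.78, 11.54, 9.91 and 10.07 in SM16 and 15.43 to 15.70 (median 15.54) in NN. It was 29.98-fold lower (adjusted p = 7.41e-11), with SM16 replicates 2 and 3 higher than the other SM16 arrays but below all NN arrays. Ltf, lactoferrin, was also highest on SM16 replicates 2 and 3, at 11.92, 13.49, 13.002, 11.72 and 11.85 in SM16 and 15.85 to 15.93 (median 15.90) in NN, near the top of the scale in NN. It was at least 11.3-fold lower on this probe (adjusted p = 8.12e-10), and its dimmer probe fell by 7.98 on the log2 scale. Fcnb, a ficolin of the marrow neutrophil, was at least 104-fold lower, and Itgb2l, an integrin-like chain, 62.7-fold lower. Chil3, a chitinase-like protein, and Orm1, an acute phase glycoprotein, were 40.7-fold lower and 40.6-fold lower. Mmp9, gelatinase B, fell less and was 4.08-fold lower (adjusted p = 2.37e-11), and Mmp8, the neutrophil collagenase, was 24.1-fold lower.

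**Figure D3:**
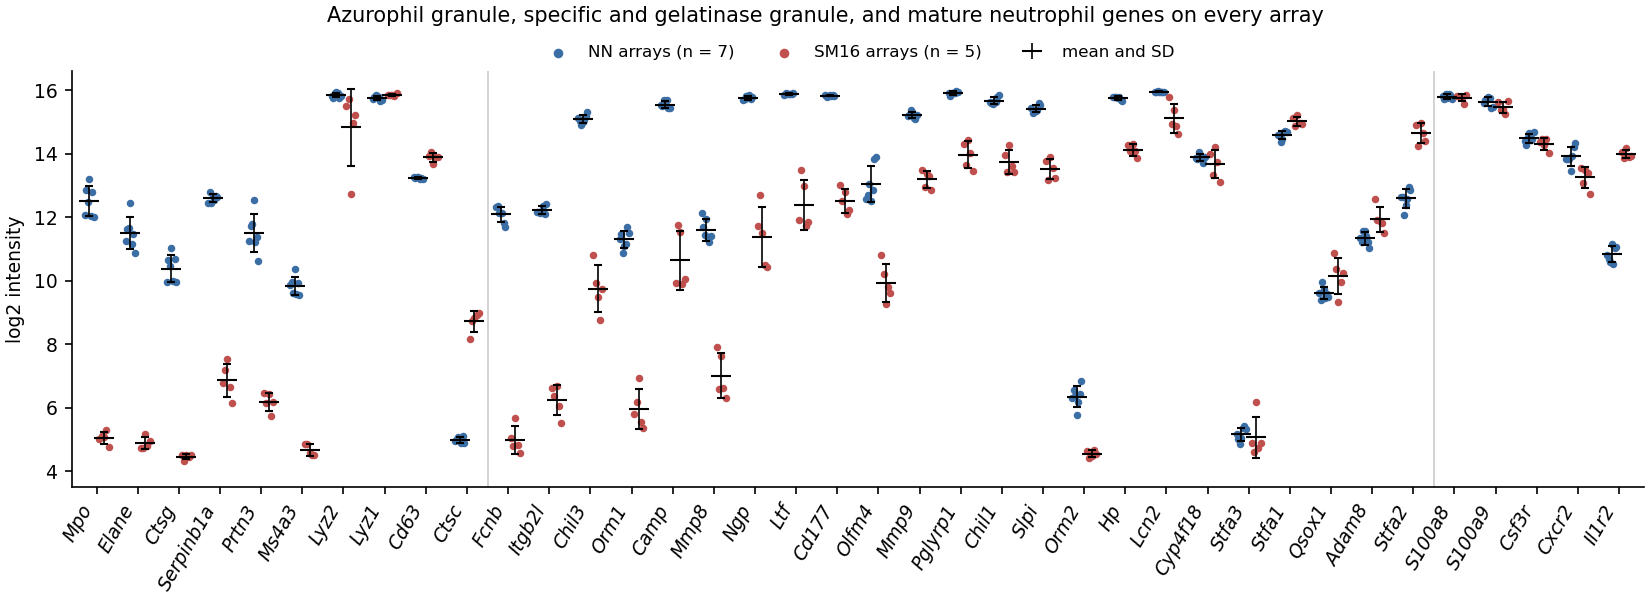
Log2 intensity on every NN array (blue, n = 7) and SM16 array (red, n = 5) of azurophil granule genes (left block), specific and gelatinase granule genes (middle block) and 5 genes of mature neutrophils (right block), with bars for mean and SD. The azurophil genes from Mpo to Ms4a3 fell to low levels while S100a8, S100a9 and the brightest of 5 Csf3r probes read high in both groups.

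Cell cycle genes fell with the granule genes. The regulators of granulopoiesis were called in both directions, near the shares over all genes (36.7% higher and 36.4% lower). Cebpe, the transcription factor that drives secondary granule genes, read 7.20, 7.34, 7.87, 7.24 and 7.36 in SM16 and 13.41 to 13.60 (median 13.54) in NN. That is 70.4-fold lower (adjusted p = 3.39e-17). Of the 20 granulopoiesis factors measured, Cebpe included, 9 fell, 7 rose and 4 were not called (median -0.32). Nfe2, a factor of erythroid cells and megakaryocytes that neutrophils also express, and Klf5 were 9.72-fold lower and 7.34-fold lower, and Irf8, which favours monocytes over granulocytes, was 6.91-fold higher. Of 35 cell cycle and DNA replication genes 29 fell, 2 rose and 4 were not called (median -1.16). Hmgb2, a chromatin protein of dividing cells, was 10.9-fold lower, Kif11, the spindle motor, 10.7-fold lower, and Nusap1, a spindle protein, 7.39-fold lower. Ccnd1, cyclin D1, went the other way with a 37.9-fold rise. Cdkn1a, the cyclin-dependent kinase inhibitor p21, read 14.15, 13.69, 14.39, 13.85 and 13.98 in SM16 and 5.57 to 7.07 (median 6.36) in NN and rose 188-fold (adjusted p = 9.64e-15).

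Granulocyte precursor markers, which share Mpo, Elane, Camp, Cebpe and others with the lists above, fell for 13 of 14 and rose for 0 (median -5.25). Their summed level was 18.01 to 18.12 on the NN arrays and 15.51 to 16.29 on the SM16 arrays. In bulk preparations such as these, fewer cells of a kind and less RNA per cell cannot be told apart, here or in any result that follows.

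The TGF-beta pathway was measured through 34 genes, of which 20 rose, 6 fell and 8 were not called (median 0.57). Tgfbr1, which encodes Alk5, the target of SM16, read 10.69, 10.76, 10.23, 10.56 and 10.06 on the SM16 arrays and 11.50 to 12.25 (median 11.69) on the NN arrays. It was 2.56-fold lower in SM16 (adjusted p = 4.36e-07). Tgfbr2, the type II receptor that pairs with it, was 2.04-fold higher (log2 change 1.03, SE 0.11, adjusted p = 1.66e-07). Smad3, the signal transducer below the receptors, gave -0.12 (SE 0.16, adjusted p = 0.522), and Smad7, its inhibitory relative, had no annotated probe and was not analysed here. The largest changes of the list were those of Cdkn1a, given above, and of Tgif1, a corepressor of Smads, which rose 49.99-fold. Ltbp3, which binds latent TGF-beta, was at least 6.50-fold higher, and Eng, endoglin, an auxiliary receptor, rose 6.16-fold. RNA levels do not measure the activity of the kinase, which SM16 acts on.

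Antigen presentation rose in both classes. For class II, 13 of 15 genes were higher and 2 lower, with a median change of 3.38. H2-Eb1, a class II beta chain, read 14.13, 14.16, 14.04, 14.20 and 13.78 in SM16 and 9.44 to 10.60 (median 9.92) in NN and was 16.3-fold higher (adjusted p = 9.19e-13). H2-DMb1, a chain of the peptide editor, was 15.1-fold higher, and the lysosomal proteases that process antigen and invariant chain, Lgmn and Ctss, stood 28.96-fold higher and 18.4-fold higher. Class II genes are typical of macrophages, dendritic cells and B cells. Dendritic cell markers, which share H2-Aa, H2-Ab1 and H2-Eb1 with the class II list and 4 of whose 9 measured members were missed on most NN arrays, rose for 8 and fell for 0, with a summed level of 11.36 to 12.41 on the NN arrays and 15.57 to 15.87 on the SM16 arrays. Their part in the class II rise was not tested.

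Class I genes rose for 15 of 22, fell for 2 and were not called for 5 (median 1.06). H2-K1, a classical heavy chain, was 7.03-fold higher and Nlrc5, the transactivator of class I genes, 23.1-fold higher. Psmb10, a subunit of the immunoproteasome, was 9.09-fold higher, and H2-M3, which presents formylated peptides, 10.8-fold higher. Costimulatory and checkpoint molecules rose for 15 of 22, fell for 4 and were not called for 3 (median 1.31, 1.07 at bounds, but 0.32 in the authors' normalized table and 0.73 without background correction). Of these 22, 13 were detected on most NN arrays and 20 on most SM16 arrays. Cd274, the checkpoint ligand PD-L1, read 14.02, 14.01, 14.55, 14.33 and 14.35 in SM16 and 7.58 to 7.99 (median 7.74) in NN. It was 89.1-fold higher (adjusted p = 3.88e-17), and the groups lay far apart. Pdcd1lg2, the related ligand PD-L2, and Havcr2, the inhibitory receptor Tim-3, stood at least 4.53-fold higher and at least 5.58-fold higher, and Cd40, a costimulatory receptor, rose 10.6-fold.

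Interferon-stimulated genes were higher for 30 of 43, lower for 3 (5 without SM16 replicate 3) and not called for 10, with a median change of 1.46. The guanylate-binding proteins Gbp5 and Gbp3 stood at least 26.9-fold higher and 29.3-fold higher. The GTPase Mx2, an antiviral protein, and Ifi47, an immunity-related GTPase, stood at least 12.3-fold higher and 12.4-fold higher.

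Of the genes named here from arginine metabolism, Arg1 changed most. Arg1, the arginase that depletes arginine and is known for hindering T cells, read 13.86, 14.20, 13.22, 13.73 and 14.26 on the SM16 arrays and 4.34 to 4.54 (median 4.45) on the NN arrays. It was at least 339.6-fold higher in SM16 (adjusted p = 1.64e-17), and no NN array detected it. On TAN replicates 1, 2 and 4 the same probe read 12.23, 12.40 and 14.02, given without a test. Nos2, the inducible nitric oxide synthase that competes for arginine, was at least 2.28-fold higher (adjusted p = 3.86e-05), and Srm, spermidine synthase, 4.84-fold higher. Of the 15 genes of the list 8 rose, 5 fell and 2 were not called, beside 36.7% higher and 36.4% lower over all genes. The median of 0.72 shrank to 0.06 with undetected members at their bounds. The log2 of the list's summed intensities was 15.39 to 15.61 on the NN arrays and 15.79 to 15.95 on the SM16 arrays.

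Matrix proteases other than those stored in neutrophil granules were mostly higher. Mmp12, the macrophage elastase, was at least 91.9-fold higher, Mmp13, a collagenase, 77.1-fold higher and Mmp14, a membrane-bound protease, 37.98-fold higher, against the falls of Mmp8 and Mmp9. Over the list of 18 proteases and inhibitors 11 rose, 5 fell and 2 were not called (median 0.95, 0.71 at bounds). Enzymes of prostaglandins and leukotrienes had 7 of 16 up, 8 down and 1 not called, beside 36.7% higher and 36.4% lower over all genes. Ptgs2, the inducible cyclooxygenase, and Ltc4s, leukotriene C4 synthase, stood at least 6.94-fold higher and at least 10.6-fold higher. Alox12, the lipoxygenase of platelets, and Hpgd, which degrades prostaglandins, were at least 64.04-fold lower and at least 6.50-fold lower. The dimmer probe of Alox12 gave a smaller log2 change of -1.24.

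Most genes of hypoxia, stress and lysosomes were higher. Hilpda, a lipid droplet protein induced by hypoxia, read 14.83, 14.55, 14.86, 14.55 and 14.75 in SM16 and 5.96 to 7.13 (median 6.27) in NN and was 310.1-fold higher (adjusted p = 6.33e-16). In the list of glycolysis and hypoxia genes 21 of 31 rose, 7 fell and 3 were not called (median 1.02, 0.62 at bounds). Slc2a1, the glucose transporter Glut1, rose 11.2-fold, Egln3, an oxygen-sensing hydroxylase, 12.9-fold, and Ddit4, an inhibitor of mTOR signalling, 10.1-fold. Of the unfolded protein and heat shock genes 21 of 29 rose, 4 fell (2 without SM16 replicate 5) and 4 were not called (median 1.12). Hspa1a, an inducible Hsp70, was at least 90.6-fold higher and Ddit3, the stress factor Chop, rose 6.97-fold. Lysosome genes rose for 26 of 34 and fell for 3 (median 1.11). Bcl2a1d, a survival protein of activated leukocytes, was at least 18.6-fold higher and Pim1, a survival kinase, rose 9.11-fold, in a Bcl2 family list where 12 of 21 rose, 4 fell and 5 were not called. Fas, the death receptor, was 1.96-fold higher (adjusted p = 2.02e-06).

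Genes of the respiratory burst and of movement were lower. Of 8 NADPH oxidase genes 7 fell and 0 rose (median -1.49, -1.17 at bounds). Ncf1, the p47 organizer subunit, read 9.17, 8.997, 9.39, 9.15 and 8.93 in SM16 and 11.99 to 12.40 (median 12.18) in NN and was 8.32-fold lower (adjusted p = 6.44e-14), without overlap. Cybb, the catalytic subunit, was at least 2.44-fold lower, Rac2, the GTPase that switches the complex on, 3.83-fold lower, and Hvcn1, the proton channel that sustains the burst, 5.32-fold lower. Genes of the actin cytoskeleton fell for 24 of 36, rose for 4 and were not called for 8 (median -0.98). Capza1, which caps filament ends, and Cdc42ep3, an effector of Cdc42, were 5.65-fold lower and 6.97-fold lower, while Evl, which promotes filament growth, was 5.62-fold higher.

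Adhesion molecules had 8 of 23 higher, 12 lower and 3 not called (median -0.51, turning to 0.0744 with the mean over probes). Over all genes 36.7% were higher and 36.4% lower. Icam1, the ligand of the leukocyte integrins that the series text ties to the antitumour state, read 12.56, 13.02, 12.86, 12.71 and 13.38 in SM16 and 7.72 to 8.29 (median 8.03) in NN. It was 29.3-fold higher (adjusted p = 1.63e-14). Itgam, the integrin chain CD11b of neutrophils and macrophages, was 5.43-fold lower, Ceacam1, a granulocyte adhesion molecule, at least 9.87-fold lower, and Cd177, a receptor of the neutrophil surface, 9.90-fold lower.

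Innate receptors changed in both directions, as did genes as a whole (36.7% higher and 36.4% lower). Toll-like receptors and adaptors rose for 10 of 16 and fell for 2, among them Cd14, the lipopolysaccharide coreceptor, which rose 43.7-fold, and Tlr1 and Tlr4, which rose 15.7-fold and 4.56-fold. C-type lectins and Trem receptors had 12 of 24 up, 10 down and 2 not called. Clec10a and Mgl2, galactose-binding lectins of macrophages and dendritic cells, stood 100.3-fold higher and 35.2-fold higher, and Clec4n, the fungal receptor dectin-2, 54.5-fold higher. Fc receptors had 5 of 13 up and 6 down, with Fcgr1 and Fcgr2b, receptors of IgG, 16.8-fold higher and 15.2-fold higher and Fcmr, a receptor of IgM, at least 30.7-fold lower. Complement had 6 of 14 up and 6 down, with C4b and Cfb 46.2-fold higher and at least 25.6-fold higher.

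Of the housekeeping lists, cytosolic ribosomal proteins were higher for 43 of 49 and lower for 0 (median 0.68). With median scaling in place of quantile normalization the change over all genes shifted to -0.06. Mitochondrial ribosomal proteins rose for 45 of 69 and fell for 14 (median 0.74), and respiratory chain subunits rose for 35 of 73, fell for 9 and were not called for 29 (median 0.27), with 21 rises under median scaling.

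**Figure D4:**
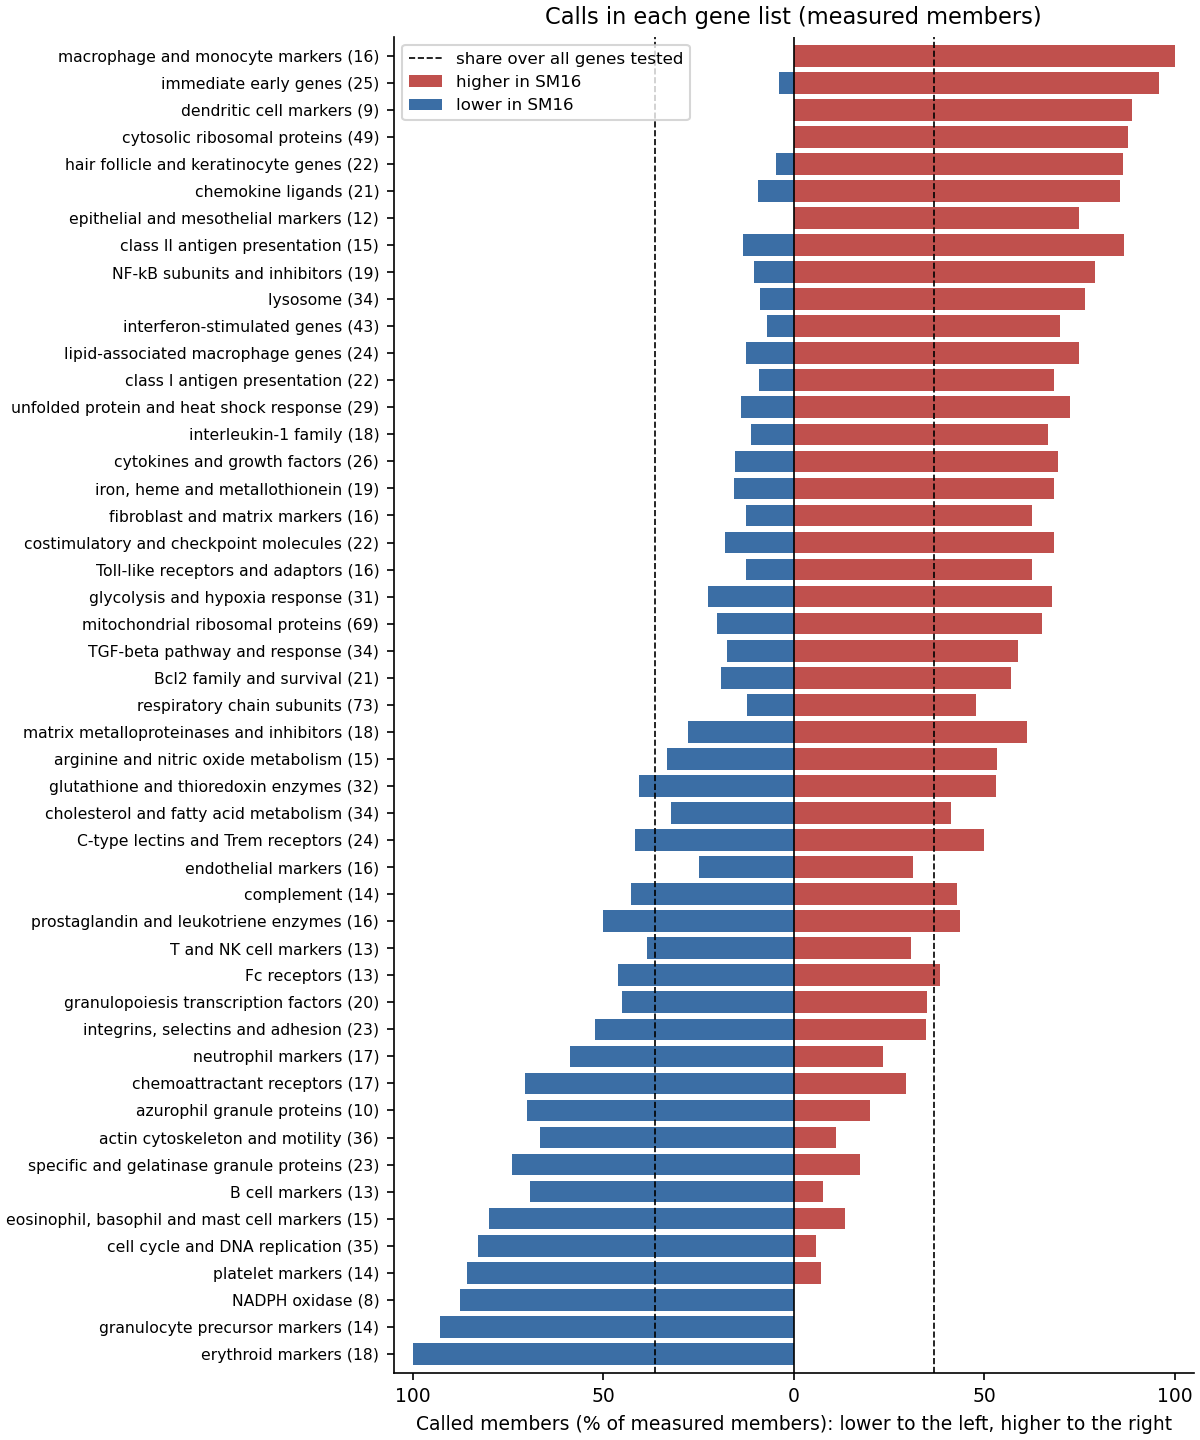
Share of the measured members of each of 49 gene lists (number in brackets) called higher in SM16 (red, to the right) or lower (blue, to the left), with dashed lines at the shares over all genes tested (36.7% and 36.4%). Macrophage and monocyte markers had 16 of 16 members higher and erythroid markers 18 of 18 lower.

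Markers of other cells moved with these groups. Macrophage and monocyte markers rose for all 16 measured (median 4.00), and their summed level was 13.15 to 14.14 on the NN arrays and 17.51 to 18.03 on the SM16 arrays, so the groups did not overlap. C1qc, a chain of complement C1q made mainly by macrophages, read 15.33, 15.73, 14.78, 15.45 and 15.33 in SM16 and 10.69 to 11.96 (median 11.40) in NN, 16.5-fold higher (adjusted p = 1.01e-11). F13a1, the A chain of coagulation factor XIII, and Ms4a7, a macrophage membrane protein, rose 34.2-fold and 41.98-fold. Each of the 16 was detected on most arrays of both groups. Folr2 and Dab2, which macrophages of tissues express, were among the 15 largest rises, at least 135-fold higher and 254-fold higher, and lipid-associated macrophage genes rose for 18 of 24 and fell for 3, with Trem2, Gpnmb and Apoe 49.5-fold higher, at least 24.4-fold higher and 32.3-fold higher. Many genes above, among them the monocyte chemoattractants, Arg1, class II, C1q, Mmp12 and Cd274, are also expressed by macrophages. The part of such cells in these rises was not tested.

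The marrow preparations carried transcripts of red cell precursors that were near background in SM16. All 18 erythroid markers measured were lower in SM16 (median -4.29, -3.95 at bounds), with a summed level of 16.89 to 17.08 on the NN arrays and 10.63 to 11.05 on the SM16 arrays. Slc4a1, the anion exchanger of the red cell membrane, read 4.49, 4.86, 4.47, 4.79 and 4.80 in SM16 and 14.65 to 14.98 (median 14.90) in NN, and was at least 715-fold lower (adjusted p = 3.22e-20), the largest fall named by size. Alas2, Hbb-b2 and Hba-a1, for heme synthesis and globin chains, were at least 418-fold lower, at least 134-fold lower and at least 129.7-fold lower, the last with its NN arrays at the top of the scale. Of the 18 markers 17 were detected on most NN arrays and 4 on most SM16 arrays.

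Markers of other marrow lineages, apart from the T and NK cell list, were mostly lower as well. Prg2, the eosinophil major basic protein, read 4.48, 5.90, 8.06, 5.30 and 4.69 in SM16 and 14.03 to 14.91 (median 14.32) in NN, at least 334-fold lower (adjusted p = 1.39e-11), with SM16 replicate 3 above the other SM16 arrays. Ear6, Ear10 and Prg3, also eosinophil granule proteins, were at least 83.6-fold lower, at least 35.9-fold lower and at least 12.1-fold lower. Of the 15 eosinophil, basophil and mast cell markers 12 fell, 2 rose and 1 was not called. Of these 15, 13 were detected on most NN arrays and 3 on most SM16 arrays. Their summed level overlapped between the groups (15.77 to 16.19 on the NN arrays and 15.58 to 15.93 on the SM16 arrays) and holds Hdc, histidine decarboxylase, a bright gene that neutrophils also express and that rose 1.60-fold. Platelet markers fell for 12 of 14 and rose for 1, with Gp5 and Gp1bb, subunits of the receptor for von Willebrand factor, at least 50.9-fold lower and at least 24.5-fold lower. The exception was Pf4, platelet factor 4, chosen after its value was seen, which rose 2.23-fold. B cell markers fell for 9 of 13 and rose for 1, with a summed level of 11.78 to 13.04 on the NN arrays and 9.67 to 9.99 on the SM16 arrays. All 13 were detected on most NN arrays and 5 on most SM16 arrays. Vpreb3, a gene of B cell precursors, was at least 22.5-fold lower and Cd79a, a signalling chain of the B cell receptor, 19.2-fold lower. T and NK cell markers went in both directions, with 4 of 13 up, 5 down and 4 not called (median -0.07). Over all genes 36.7% were higher and 36.4% lower. The summed level of this list was 13.61 to 13.87 on the NN arrays and 10.95 to 12.06 on the SM16 arrays. Among those that fell, Cd3d, a chain of the T cell receptor complex, was 11.95-fold lower. The precursor, granule and cell cycle genes that fell stand beside these marrow lineages, and the part of other marrow cells in their fall was not tested.

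The SM16 preparations also carried epithelial and hair transcripts. Of the 12 epithelial and mesothelial markers that passed the filter, 4 were detected on most NN arrays and 12 on most SM16 arrays, so others passed through the SM16 arrays, where they are high. For these 12, 9 were higher and 0 lower, with Krt8 and Krt18, keratins of simple epithelia, 28.7-fold higher and at least 10.1-fold higher and Msln, mesothelin, at least 7.62-fold higher. Their summed level was 8.44 to 9.09 on the NN arrays and 11.40 to 12.05 on the SM16 arrays. On TAN replicates 1, 2 and 4, tumour neutrophils without SM16, it was 12.52, 12.33 and 11.58, given without a test. Fibroblast and matrix markers rose for 10 of 16 and fell for 2, although their summed level was lower in SM16 (13.65 to 13.91 on the NN arrays and 12.02 to 12.81 on the SM16 arrays). Acta2, smooth muscle actin, the brightest of them and looked up after that sum was seen, was 4.57-fold lower on its brightest probe. Of its other 3 probes 1 was called lower and 2 were not called (log2 changes 0.04 and -0.11). Endothelial markers had 5 of 16 up (8 without SM16 replicate 2), 4 down (2 without SM16 replicate 5) and 7 not called. The shares over all genes were 36.7% higher and 36.4% lower. The endothelial median of 0.27 was 0.06 without NN replicates 6 and 7 and 0.42 without SM16 replicate 2. Among those that rose, Lyve1, a hyaluronan receptor of lymphatic vessels and some macrophages, was 10.5-fold higher.

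**Figure D5:**
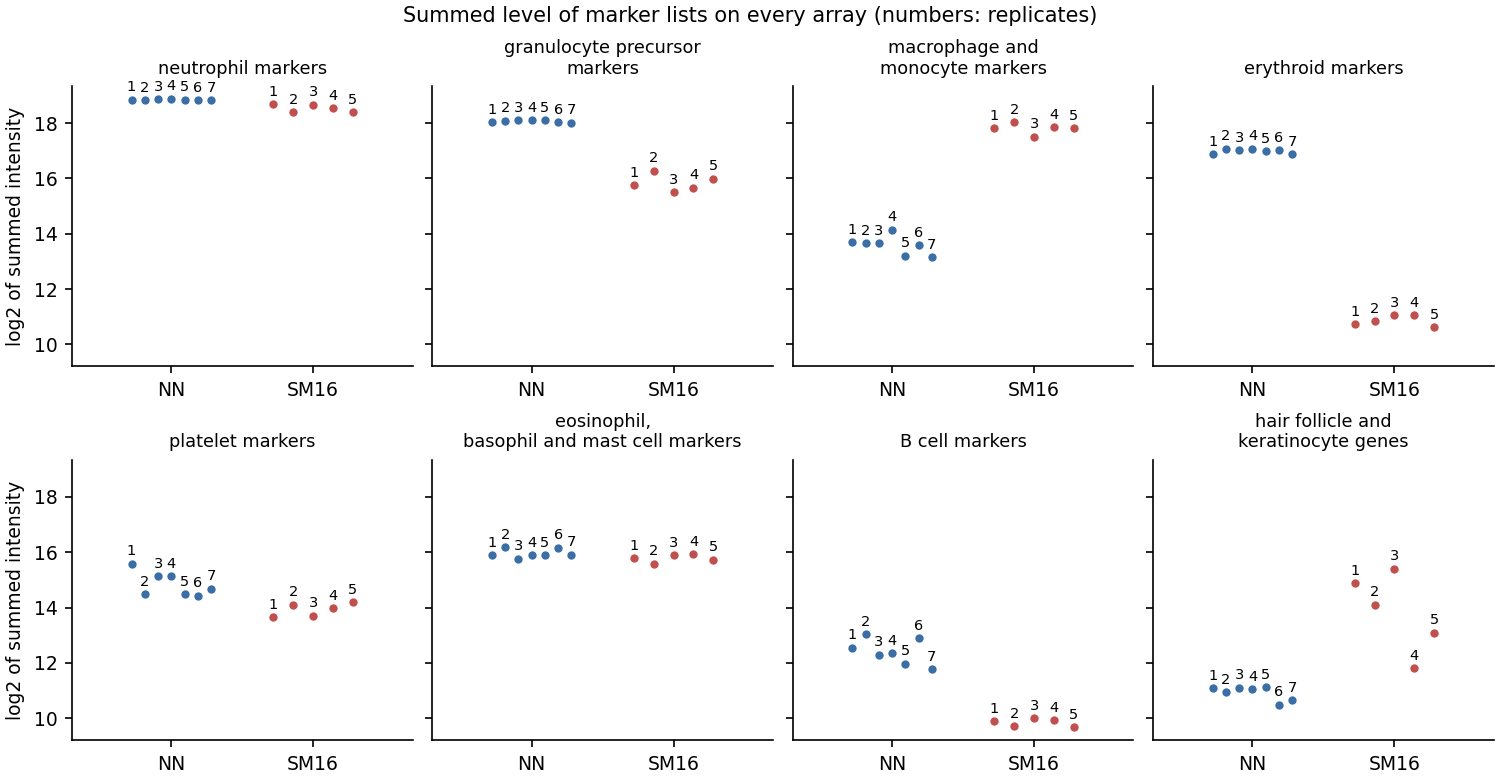
Log2 of the summed intensity of 8 marker lists on each NN array (blue) and SM16 array (red), with the replicate number above each point. Macrophage markers were higher and erythroid and B cell markers lower on every SM16 array, and hair genes spread widely among the SM16 arrays. Neutrophil markers were somewhat lower on every SM16 array (18.4 to 18.7) than on the NN arrays (18.8 to 18.9).

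The SM16 preparations varied among themselves in a few groups of genes. The median SD over genes was 0.247 in SM16 and 0.231 in NN, but 114 genes had an SD over 1 on the SM16 arrays against 9 on the NN arrays. The list of hair follicle and keratinocyte genes held 16 of the 114, and 8 more had keratin or keratin-associated names, 7 of them lowest on replicate 4. Of the 22 hair genes that passed the filter 6 were detected on most NN arrays and 22 on most SM16 arrays. For these 19 were higher, 1 lower and 2 not called (median 3.51, 2.75 at bounds, 0.77 in the authors' normalized table with 29 genes), and the summed level was 10.48 to 11.12 on the NN arrays and 11.81 to 15.41 on the SM16 arrays. On TAN replicates 1, 2 and 4 it was 10.98, 11.18 and 10.70, given without a test. S100a3, which binds calcium in the cuticle of hair, read 12.82, 11.91, 13.20, 9.49 and 10.96 on SM16 replicates 1 to 5 and 5.90 to 6.40 (median 6.27) on the NN arrays. Krt71, a keratin of the inner root sheath, read 11.33, 10.68, 12.90, 6.72 and 8.51 and was detected on 0 NN arrays. Both were highest on replicate 3 and lowest on replicate 4, as were 10 and 13 of the 16 hair genes, respectively.

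A second set of variable genes was low on SM16 replicates 3 and 4. Of the other 98 genes with an SD over 1, 52 were lowest on replicate 3, 34 on replicate 4 and 12 on another replicate. The 34 include 7 of the 8 keratin genes counted above, which follow the hair genes in being lowest on replicate 4. For each of the 52, replicate 4 was the second lowest. Since the 52 were picked as lowest on replicate 3, their low median on that array follows from the choice. The median of the 52 was 8.66, 8.87, 5.34, 6.96 and 8.53 on SM16 replicates 1 to 5 and 8.25 to 8.86 on the NN arrays, and it was 4.83, 4.80 and 6.32 on TAN replicates 1, 2 and 4. Ctsa, a lysosomal carboxypeptidase picked out after its values were seen, read 9.88, 10.44, 4.63, 6.39 and 9.99 on the SM16 arrays. The labels give no reason why these arrays stand apart. Leaving out both replicates called 6363 genes, and 6194 of the 6644 calls kept their direction and call.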

How the data were processed

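Each preparation was hybridised to 1 single-colour Illumina BeadChip. The authors deposited a table that is not normalized, with the mean bead intensity of 25697 probes on a linear scale, made with GenomeStudio per the submitters' processing notes (version not given in the sources used here). A detection p-value, also deposited, stands beside each intensity. The authors' normalized intensity table of 17004 probes served as an alternative. Per the labels, the RNA carried a biotin label. Their growth and extraction text is about fixed biopsies, not neutrophils, and was not used.

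From the deposited intensities, log2 values were computed for all 19 arrays with neqc of limma 3.58.1 (R 4.3.3, offset 16), which corrects background and normalizes quantiles. Probes detected at p under 0.01 on 3 or more of the 12 arrays were kept (13150), and 787 of them without a symbol were left out, which left 12363. Of 15959 annotated probes, 15950 matched RefSeq by Entrez ID. The brightest probe stood for its gene, which gave 9083 genes. Among 2360 genes with several probes, 86 (3.64%) had calls in both directions. The limma fit held 5 SM16 and 7 NN arrays, leaving 10 residual degrees of freedom, with a trend in the variance, and was tested on simulated data. The number of arrays limits the precision. Alternatives changed the normalization, filter, probe choice, fit and arrays used.

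The samples compared and the gene lists were chosen with earlier results of these data known. Genes were named by a rule: the 15 largest rises and 15 largest falls among called genes whose groups do not overlap, that were detected throughout the higher group and have more than a clone name. To these come up to 4 called members with the largest change from each of 49 lists (13 of them cell type markers), the brightest members of marker lists, and a set of genes known from neutrophils and TGF-beta signalling whatever their values. Others are marked in the text as chosen after their values were seen. The summed level of a list is the log2 of its members' summed normalized intensities.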

Additional observations from a re-analysis of the deposited data

Results flagged for a closer look

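Among the genes named in the text, single arrays stood far from the others of their group by Dixon's 95% criterion in a few cases. The criterion was applied to 342 groups of values and marked 15, and chance alone marks about 1 in 20. On SM16 replicate 3, Cebpe read 7.87 (the other SM16 arrays 7.20 to 7.36), C5ar2 4.98 (5.84 to 6.12), H2-M3 11.15 (11.58 to 11.66) and Nfkbiz 14.33 (14.03 to 14.10). On SM16 replicate 5, Cxcl1 read 13.13 (12.28 to 12.48) and Hspa1a 11.33 (11.98 to 12.19). S100a8 read 15.59 on SM16 replicate 4 (15.79 to 15.87), and Ctsc 8.16 on SM16 replicate 1 (8.75 to 8.98). On NN replicate 6, Ccl2 read 5.04 (the other NN arrays 4.42 to 4.65), Ccl7 5.02 (4.42 to 4.66) and Cxcr4 12.87 (13.21 to 13.41). On NN replicate 4, Cebpe read 13.41 (13.52 to 13.60) and Cd14 10.42 (9.81 to 10.03). Traf1 read 5.17 on NN replicate 5 (4.72 to 4.89), and Ccl6 10.74 on NN replicate 2 (11.10 to 11.36). In all these genes except S100a8 the distance to the other group was larger than the gap.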

How the results depend on the processing

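The count of called genes stayed between 6082 (all 4 groups in 1 fit) and 7002 (no filter on detection) over 26 alternatives, against 6644, and between 6451 and 6609 when single replicates were left out. Of the 6644 calls, 6615 kept their call and direction without background correction, 6543 in the authors' table, 6082 with median scaling (46.7% of its calls higher, median change over all genes -0.06) and 6373 without NN replicates 6 and 7. The count at 2-fold or more was 3601, and 2447 without background correction and 2473 in the authors' table. No pairing by replicate number was visible: deviations of same-numbered arrays from their group means correlated at -0.079 to 0.026, and 0 of 5 arrays correlated best with their own number. That cannot exclude a pairing, since the labels do not say what a number stands for. With the replicate block 6488 genes were called. Leaving out SM16 replicates 3 and 4, an alternative chosen after seeing the data, gave 6363.

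Of 216 genes named by rule or in the text, 211 kept their call and direction under all 26. The exceptions follow. Vegfa turned to 0.35 (adjusted p = 0.0193) with the mean over probes and was called at -0.28 (adjusted p = 0.0402) without NN replicate 3. Csf3r was called at -1.75 with the mean over probes. Rps2, named by the rule for ribosomal proteins, missed the threshold in the 4-group fit (1.45, adjusted p = 0.0585). S100a9 was called with array weights, without NN replicates 6 and 7, with those arrays as a block, with the replicate block and without SM16 replicate 5, at -0.23 to -0.26. Ctsa was called with the mean over probes (1.23), without SM16 replicate 3 (1.36) and without SM16 replicates 3 and 4 (2.29). The cause was not tested for any of them. List medians kept their sign in at least 47 of 49 lists under each alternative, and in 47 in the authors' normalized table. Examples of turns follow. T and NK cell markers turned from -0.07 to 0.34 with detection on every array of a group (11 members left). Integrins, selectins and adhesion turned from -0.51 to 0.0744 with the mean over probes, and cholesterol and fatty acid metabolism from 0.06 to -0.10 without SM16 replicates 3 and 4. Without turning, 30 of 49 medians moved by over 1.5 times under 1 or more alternatives, 24 of them in the authors' table. There the medians were -0.51 for chemoattractant receptors, 0.54 for cytokines and growth factors, 1.702 for immediate early genes, 0.34 for the TGF-beta pathway, 0.38 for arginine metabolism, 0.45 for matrix proteases, 0.58 for glycolysis and hypoxia, 0.46 for iron and heme, and 0.51 for epithelial markers. Median scaling gave -0.50 for granulopoiesis factors and 0.13 for respiratory chain subunits. For genes missed on most arrays of a group only a bound on the difference is given.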

Other observations

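Some of the largest changes and 3 metabolic lists fall outside the groups above. Saa3, an acute phase apolipoprotein, was at least 218-fold higher in SM16, and Ch25h, which makes 25-hydroxycholesterol, at least 133-fold higher (limma adjusted p = 9.59e-16 and 1.78e-16). Ch25h read 12.41, 12.86, 11.78, 12.56 and 12.88 on SM16 replicates 1 to 5 and 4.47 to 4.61 (median 4.54) on the NN arrays, none of which detected it. Among the falls were Slc38a5, a glutamine transporter, Trim10, known from red cell maturation, and the membrane protein Tmem45a2, which were at least 46.2-fold lower, at least 56.3-fold lower and at least 99.04-fold lower. Iron, heme and metallothionein genes rose for 13 of 19, fell for 3 and were not called for 3 (median 0.90): Mt1, a metallothionein, and Cp, ceruloplasmin, rose 18.5-fold and 10.7-fold, and Ncoa4, which delivers ferritin to the lysosome, was 7.26-fold lower. Glutathione and thioredoxin enzymes had 17 of 32 up, 13 down and 2 not called, beside 36.7% higher and 36.4% lower over all genes. Among them Sod2, the mitochondrial superoxide dismutase, was 5.62-fold higher and Gpx3, a secreted glutathione peroxidase, 9.89-fold higher. Mgst2, a microsomal glutathione transferase, was 39.1-fold lower. Cholesterol and fatty acid genes had 14 of 34 up, 11 down and 9 not called, to be read against the same shares. Their median was 0.06 beside 0.03 over all genes. Fads1, a fatty acid desaturase, and Dhcr7, the last enzyme of cholesterol synthesis, rose 6.20-fold and 4.40-fold.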
